A study of Mus musculus with 2 samples.

Results

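The genes Kcnb2, Kcnc1, Kcnc2, Kcnc4 and Kcnv1, which encode subunits of voltage-gated potassium channels of the Kv2 and Kv3 kind, were followed in nuclei of the mouse hippocampal field CA1. They were taken by symbol, as 5 of the 30431 gene rows of the count matrices. Kcnb2 encodes Kv2.2, Kcnc1, Kcnc2 and Kcnc4 encode the Kv3 subunits Kv3.1, Kv3.2 and Kv3.4, and Kcnv1 encodes Kv8.1. The series compared chronic epilepsy with control in 2 libraries of single nuclei, 1 per condition. All mice were male C57BL/6J animals carrying Calb1::Cre and a Tdtomato reporter, aged 6 to 7 weeks at treatment. For the epilepsy library, kainate at 5 mg/kg was injected hourly until status epilepticus, defined as continuous seizures of over 30 min, and diazepam at 4 mg/kg was given against convulsions. Control mice received vehicle, which was saline or DMSO, and otherwise like treatment. Dorsal CA1 was dissected 12 weeks later and its nuclei were sorted. The labels name 2 mice per condition and do not say whether a library holds 1 of them or both. Later seizures were seen while mice were handled or, in part of the animals, recorded electrically, and the labels report none in controls.

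Voltage-gated potassium channels open when a neuron depolarises and bring the membrane back to rest. Kv2 channels are slow delayed rectifiers of the cell body and proximal dendrites that carry much of the repolarising current of pyramidal neurons. Kv3 channels open only at strongly depolarised voltages and close fast, which allows fast-spiking cells, in particular parvalbumin interneurons, to fire brief spikes at high rates. Kv8.1 forms no working channel of its own and joins Kv2 subunits in mixed channels.

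With 1 library per condition there was no test between conditions, and every interval below is a 95% interval that covers counting error only. After removal of likely doublets the control library held 3551 nuclei and the epilepsy library 2986, from 11858162 and 7112131 unique molecular identifiers (UMIs, one for each captured RNA molecule) and medians of 3447 and 2443 UMIs per nucleus before that removal. Barcodes found in both libraries numbered 16, and leaving out their nuclei kept every member ratio that was recomputed within its counting interval. CA1 pyramidal-like nuclei numbered 2846 and 2349, or 80.1% and 78.7% of each library, for a tissue labelled as the pyramidal layer. One cluster of them was deep-like (741 control and 509 epilepsy nuclei, high in Ndst4 and Col11a1, low in Calb1) and one superficial-like (1021 and 873, the opposite), and the 4 others were in neither sublayer (1084 and 967). Interneuron-like nuclei numbered 198 and 144. Levels are a gene's UMIs divided by all UMIs of the same class and library and scaled as counts per 1e6 (CPM). Fewer RNA molecules of a gene per nucleus and a shift in which nuclei a class holds cannot be told apart in such sums. The 5 genes and 16 relatives were kept out of the genes used for clustering.

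Kcnb2, on chromosome 1 (GRCm38 chr1:15287254-15723750, plus strand), was the member with the most UMIs, 12018 and 6848 in the control and epilepsy libraries. In CA1 pyramidal-like nuclei it stood at 1057 CPM (interval 1037 to 1078) and 1003 CPM, a log2 ratio of epilepsy to control of -0.08 (-0.12 to -0.03). The ratio lay near the middle of those of all genes, with 40.5% of 11091 genes of at least 50 UMIs over both sums lower. Most pyramidal-like nuclei held the gene, with a UMI in 90.4% of control and 83.4% of epilepsy nuclei, and in 61.9% and 60.8% once every nucleus was thinned to 1000 UMIs.

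Kcnb2 was somewhat higher in the superficial than in the deep sublayer of both libraries. In the control library it had 1150 CPM in superficial-like and 899 CPM in deep-like nuclei, a log2 ratio of 0.35 (0.28 to 0.43). In the epilepsy library it measured 1125 and 824 CPM, a ratio of 0.45 (0.35 to 0.55). The difference between these ratios, 0.09, had an interval that held 0 (-0.03 to 0.22). Between conditions, the log2 ratio was -0.13 (-0.23 to -0.02) in deep-like nuclei, -0.03 (-0.10 to 0.04) in superficial-like and -0.14 (-0.22 to -0.06) in the other pyramidal-like nuclei, so that no class differed by more than a small part of the level.

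Outside the pyramidal cells Kcnb2 was lower in interneurons, at 653 CPM in control nuclei and 576 CPM in epilepsy nuclei. Against pyramidal-like nuclei of the same library these are log2 ratios of -0.69 (-0.84 to -0.56) and -0.80 (-1.02 to -0.59). The epilepsy ratio was -0.56 with equal weight per nucleus and -0.49 after thinning, both short of 1.5-fold. Among the 4 named interneuron types the level was lowest in Pvalb-like nuclei, the fast-spiking parvalbumin type, with 398 and 309 CPM. The Pvalb-like name was not reached under 5 of the 10 alternatives, so values of this type rest on the clusters as drawn. Some unnamed clusters, each of 15 nuclei or fewer per library, lay above the highest or below the lowest named type for Kcnb2, Kcnc1 and Kcnc2. For Kcnc1 and Kcnc2 other unnamed clusters lay within the range of the named types. CCK-like nuclei had 461 and 426 CPM, neurogliaform-like nuclei 553 and 649 CPM, and Sst-like nuclei, the somatostatin type, 655 and 520 CPM. In the control library the step from Pvalb-like to Sst-like nuclei was larger than counting error (log2 ratio -0.72, -1.22 to -0.22), while CCK-like lay within it of Pvalb-like and of neurogliaform-like nuclei. An unnamed interneuron cluster led by Ntng1, singled out after its value was seen, held 97 Kcnb2 UMIs in 14 control nuclei (1910 CPM) and 5 UMIs in 3 epilepsy nuclei.

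Other excitatory classes carried Kcnb2 at levels near those of CA1. Dentate granule-like nuclei had 906 CPM in the control library, CA2/CA3 pyramidal-like nuclei 972 and 1320 CPM, and Cajal-Retzius-like nuclei 1382 and 1187 CPM. In oligodendrocyte-like nuclei, which should hold little of a neuronal channel, the level was 168 and 181 CPM, which is 15.9% and 18.1% of the pyramidal-like level. The 9 CA1 pyramidal markers reached a median of 14.5% and 27.8% of their pyramidal-like level in the same nuclei. The Kcnb2 share lay inside the range of these markers, and how much of it is RNA from other nuclei was not tested. Microglia-like nuclei held pyramidal markers at a median of 82.8% and 69.3% of the pyramidal-like level, and no level of a member is reported from them. They do enter the ranking of genes most alike to each member, given below.

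**Figure D1:**
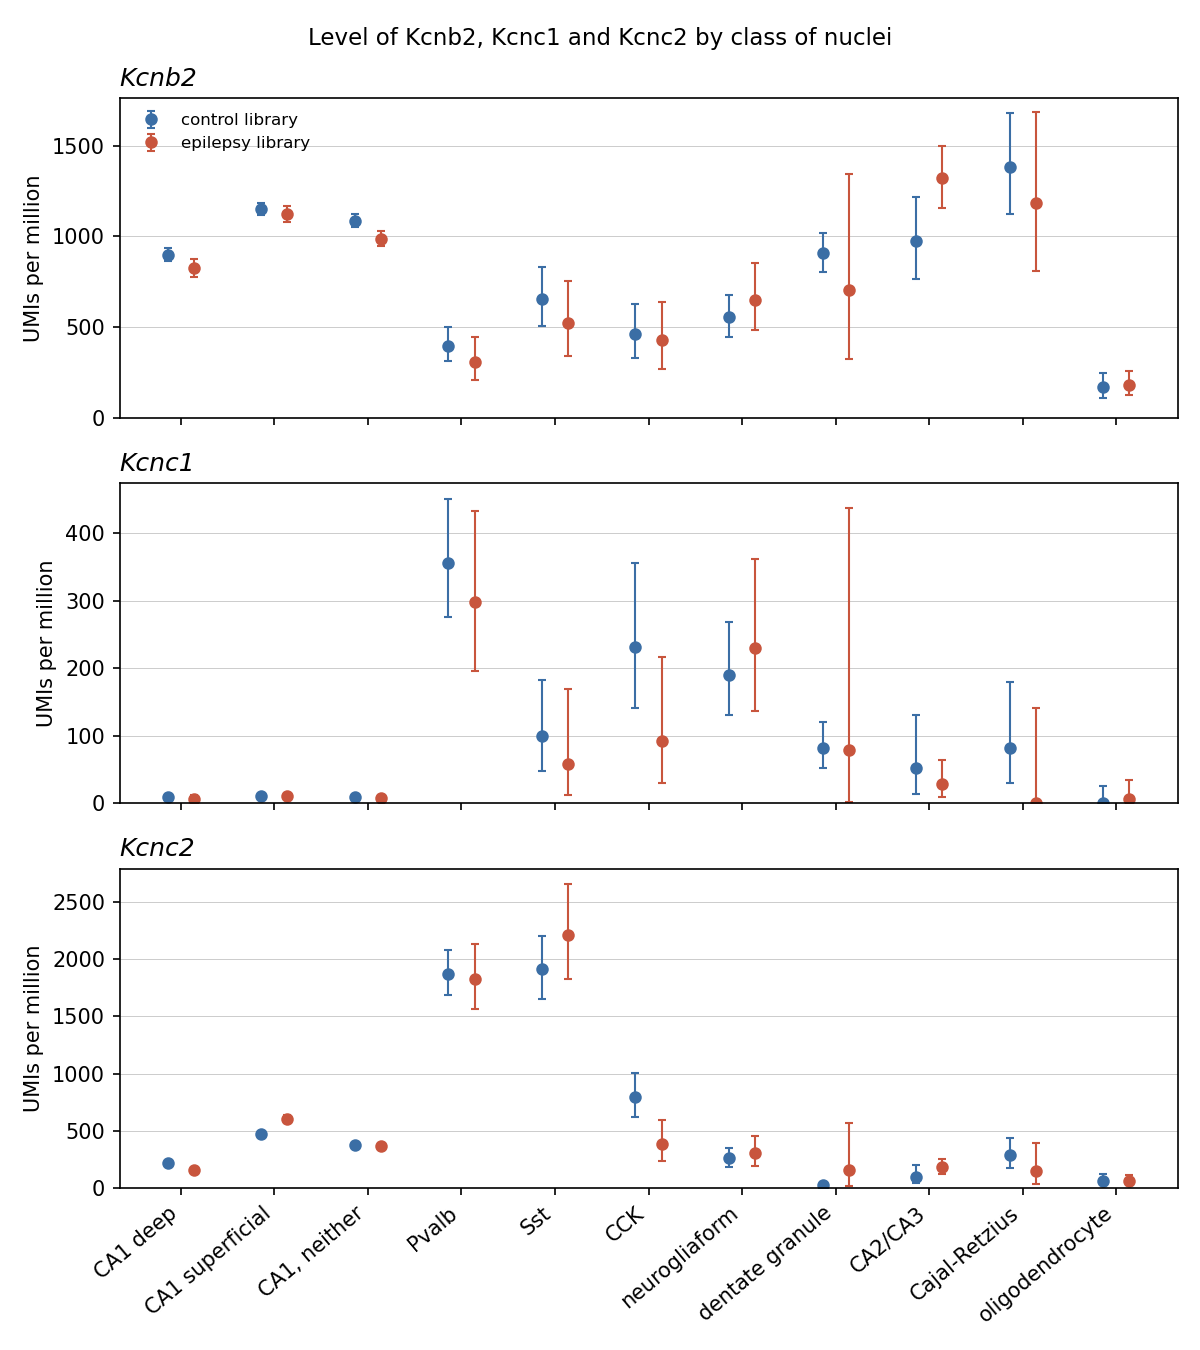
Levels of Kcnb2, Kcnc1 and Kcnc2 (CPM, linear axes from 0) in 11 classes of nuclei, control library in blue and epilepsy library in red, with 95% Poisson intervals as bars. Kcnb2 is high in pyramidal-like classes, in Cajal-Retzius-like nuclei and in dentate granule-like nuclei of the control library. Kcnc2 is highest in the Pvalb-like and Sst-like subtypes. Kcnc1 is above 50 CPM in every interneuron subtype. Over all CA1 pyramidal-like nuclei, drawn here by sublayer, it is at 9.13 and 8.02 CPM.

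Kcnv1 (chr15:45106284-45114920, minus strand), the silent partner of Kv2 subunits, was sparse, with 48 UMIs in control nuclei and 22 in epilepsy nuclei. Most came from CA1 pyramidal-like nuclei, 39 control UMIs (4.00 CPM) and 18 epilepsy UMIs (3.07 CPM), each in a nucleus of its own. The epilepsy to control ratio of -0.38 had an interval from -1.27 to 0.46, so a difference was not detectable at this depth. In the control library superficial-like nuclei had 18 UMIs and deep-like nuclei 5, a log2 ratio of 1.42 that also held 0 (-0.07 to 3.20). Interneuron-like nuclei held 2 and 0 UMIs.

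The Kv3 genes Kcnc1 and Kcnc2 were the members higher in interneurons than in pyramidal cells, and the bases upstream of their starts are shown because the pair shared that pattern while differing within it. RefSeq lists 1 start for Kcnc1 and 4 for Kcnc2 on GRCm38.p6. For Kcnc2 the start that coincides with the gene start in the GENCODE annotation is given. Both are the 250 bases before the start, 5′ to 3′ on the gene's strand, with each GC box (GGGCGG on either strand) in capitals.
Kcnc1, chr7:46396218-46396467, plus strand: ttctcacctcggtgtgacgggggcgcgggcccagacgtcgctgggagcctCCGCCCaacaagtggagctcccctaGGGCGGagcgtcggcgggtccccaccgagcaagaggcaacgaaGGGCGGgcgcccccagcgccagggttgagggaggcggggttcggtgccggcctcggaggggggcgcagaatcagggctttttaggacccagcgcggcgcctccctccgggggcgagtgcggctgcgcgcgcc
Kcnc2, chr10:112270871-112271120, plus strand: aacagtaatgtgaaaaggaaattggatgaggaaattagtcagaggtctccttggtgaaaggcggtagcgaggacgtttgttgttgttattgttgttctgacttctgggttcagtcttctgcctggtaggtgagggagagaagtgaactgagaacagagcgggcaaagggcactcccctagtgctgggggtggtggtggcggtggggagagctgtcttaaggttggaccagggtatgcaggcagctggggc
The Kcnc1 stretch held 3 GC boxes and was 74.4% G and C, above 95.4% of 32536 upstream stretches of the same length. The Kcnc2 stretch held 0 and was 52.8% G and C, close to the median of 52.4%. Of the other 3 listed Kcnc2 starts, 1 has a GC box in its stretch. A GC box occurred in 33% of all such stretches, and its presence or absence here describes these letters and nothing more.

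Kcnc1, on chromosome 7 (chr7:46396497-46438704, plus strand), encodes Kv3.1, the subunit best known from fast-spiking interneurons. Interneuron-like nuclei held 148 control UMIs (223 CPM) and 65 epilepsy UMIs (196 CPM). Pyramidal-like nuclei held 89 (9.13 CPM) and 47 UMIs (8.02 CPM). The interneuron level was 24.5-fold higher in control nuclei and 24.4-fold higher in epilepsy nuclei, log2 ratios of 4.61 (4.22 to 5.01) and 4.61 (4.05 to 5.18). In both libraries 2 of the 3 members with at least 50 UMIs, Kcnc1 and Kcnc2, were over 1.5-fold higher in interneurons, where 24.8% of 10073 genes were in control nuclei and 24.1% of 8817 in epilepsy nuclei. Kcnb2 was over 1.5-fold lower, as were 20.1% and 22.7% of genes.

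The low Kcnc1 level in pyramidal-like nuclei was 4.09% of the interneuron level in each library. The 6 interneuron markers ranged there from 0.388% to 1.03% of their interneuron level in control nuclei and from 0.553% to 2.18% in epilepsy nuclei, with Gad1 the highest. Kcnc1 thus exceeded each of these markers. Between sublayers it did not differ beyond counting error, with 10.1 CPM superficial and 8.62 CPM deep in the control and 9.99 and 6.59 CPM in the epilepsy library. Oligodendrocyte-like nuclei held 0 and 1 UMI of Kcnc1, but 3 UMIs there would be 20.2 CPM in the control library, so their level cannot be set against the pyramidal one.

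Among the 4 named interneuron types Kcnc1 was highest in Pvalb-like nuclei of both libraries, with 67 UMIs (355 CPM) in control nuclei and 27 (298 CPM) in epilepsy nuclei. Sst-like nuclei were the lowest of the 4, with 10 UMIs (99.2 CPM) and 3 UMIs (57.7 CPM). In the control library the step from Pvalb-like to CCK-like nuclei held 0 (0.62, -0.11 to 1.42), as did that from Pvalb-like to neurogliaform-like nuclei in the epilepsy library (0.38, -0.54 to 1.32). The Pvalb-like to Sst-like log2 ratio was 1.84 (0.87 to 2.97) in control nuclei and 2.37 (0.67 to 4.73) in epilepsy nuclei. CCK-like nuclei had 231 CPM from 20 UMIs and 92.6 CPM from 5 UMIs, and neurogliaform-like nuclei 190 and 229 CPM from 32 and 18 UMIs. These 2 neighbours in the order did not differ beyond counting error in either library. Between conditions the ratio was -0.19 (-0.63 to 0.24) in all interneuron-like nuclei and -0.26 (-0.96 to 0.41) in Pvalb-like nuclei. On the side of interneurons that arise in the caudal ganglionic eminence (CGE-like, 59 control and 57 epilepsy nuclei) it was -1.17 (-2.35 to -0.11), from 33 and 10 UMIs, and it was 0.0088 when that side was drawn by Adarb2 UMIs alone.

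Kcnc2, on chromosome 10 (chr10:112271121-112467024, plus strand), encodes Kv3.2 and had 4771 UMIs in control nuclei and 3155 in epilepsy nuclei. Interneuron-like nuclei stood at 1286 and 1390 CPM, pyramidal-like nuclei at 369 and 413 CPM. The interneuron to pyramidal log2 ratio was 1.80 (1.69 to 1.91) in control nuclei and 1.75 (1.60 to 1.89) in epilepsy nuclei, so the gene was over 3-fold higher in interneurons of both. Scaling by trimmed-mean factors in place of totals, which shifts all interneuron to pyramidal ratios by -0.34 and -0.33, gave 1.46 and 1.42. The pyramidal level was 28.7% and 29.7% of the interneuron level, where the interneuron markers reached medians of 0.542% and 0.867%.

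Kcnc2 was higher on the superficial side of CA1 in both libraries. In the control library it measured 473 CPM (1779 UMIs) in superficial-like and 218 CPM (608 UMIs) in deep-like nuclei, a 2.17-fold step (log2 ratio 1.12, 0.98 to 1.25). In the epilepsy library it measured 604 CPM (1391 UMIs) and 157.5 CPM (215 UMIs), a 3.84-fold step (log2 ratio 1.94, 1.73 to 2.15). Of the 3 members with enough UMIs in the control library, only Kcnc2 was over 1.5-fold higher in the superficial sublayer, as were 9.29% of 8667 genes. Of the 2 with enough in the epilepsy library, again only Kcnc2 was, as were 15.2% of 7039 genes. The step was wider in the epilepsy library by 0.82 on the log2 scale (0.58 to 1.07), and 259 of 6963 genes had a higher difference. Here too 1 of 2 members passed 1.5-fold, as did 8.7% of genes.

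Both sublayers differed between conditions, the deep one only without depth matching. Between conditions Kcnc2 was lower in deep-like nuclei of the epilepsy library, with a log2 ratio of -0.47 (-0.70 to -0.24), and higher in superficial-like nuclei, with 0.35 (0.25 to 0.45). In the nuclei of neither sublayer it was -0.02 (-0.15 to 0.11). Over all pyramidal-like nuclei the ratio was 0.16 (0.09 to 0.24). The make-up of this sum differed too, with 741 of 2846 control and 509 of 2349 epilepsy nuclei deep-like. What each part gave to the ratio was not tested. An interval below 0 in the deep and above 0 in the superficial sublayer was found for 32 of 7121 genes (0.449%), Kcnc2 among them. Genes with fewer UMIs have wider intervals and pass less readily, and no share among genes of like counts was taken. After the thinning given below, Kcnc2 did not pass. No member passed 1.5-fold between conditions in these classes or in interneurons, with 4 of them measured in pyramidal-like, 2 in deep-like, 3 in superficial-like and 3 in interneuron-like nuclei, where 13.8%, 13.4%, 12.6% and 13.1% of genes did. With each nucleus thinned to 1000 UMIs the deep-like ratio was -0.22 with an interval that held 0 (-0.62 to 0.17), and the superficial-like one was 0.37 (0.19 to 0.56).

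Counted over nuclei rather than molecules and at equal depth, the superficial-like shares differed between the libraries and the deep-like ones did not beyond counting error. After thinning, 17.6% (14.9% to 20.5%) of control and 14.8% (11.8% to 18.2%) of epilepsy deep-like nuclei held a Kcnc2 UMI, with 1 and 2 shallower nuclei left out, against 48.4% and 30.8% before thinning. Among superficial-like nuclei the shares were 35.7% (32.8% to 38.8%) and 43.9% (40.5% to 47.2%) after thinning, with 0 and 2 nuclei left out, and 76.8% and 72.7% before it. Median depths before thinning were 3810 and 2686 UMIs in deep-like and 3674 and 2648 in superficial-like nuclei. Oligodendrocyte-like nuclei, with medians of 793.5 and 595 UMIs, held a Kcnc2 UMI in 5.23% and 4.17%. The summed level of the 6 interneuron markers was alike in both sublayers, at 47.8 CPM in deep-like and 51.9 CPM in superficial-like nuclei of the control library and at 68.1 and 74.3 CPM in the epilepsy library. Slc32a1 was at 0 in superficial-like nuclei of both libraries and in deep-like nuclei of the epilepsy library.

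Ordering the pyramidal-like nuclei by a score of 8 sublayer markers, a view added after the data had been seen, gave Kcnc2 levels that were lower from each bin to the next, from superficial to deep. In the control library the 5 equal bins of nuclei, from the most superficial to the deepest, had 492, 423, 385, 323 and 222 CPM. In the epilepsy library they had 557, 547, 412, 369 and 174 CPM. The epilepsy library was thus above the control in the first 4 bins and below it in the deepest one, where the intervals (151 to 199.7 against 202 to 244 CPM) did not overlap. Intervals overlapped in bins 1, 3 and 4 and not in bin 2. The bins were not matched in markers, with Ndst4 at 114 and 47.3 CPM in bin 2 and at 684 and 406 CPM in bin 4. Kcnb2 differed less along the same order, from 1132 to 852 CPM in control nuclei and from 1096 to 852 CPM in epilepsy nuclei, with its lowest value in the deepest bin of both.

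**Figure D2:**
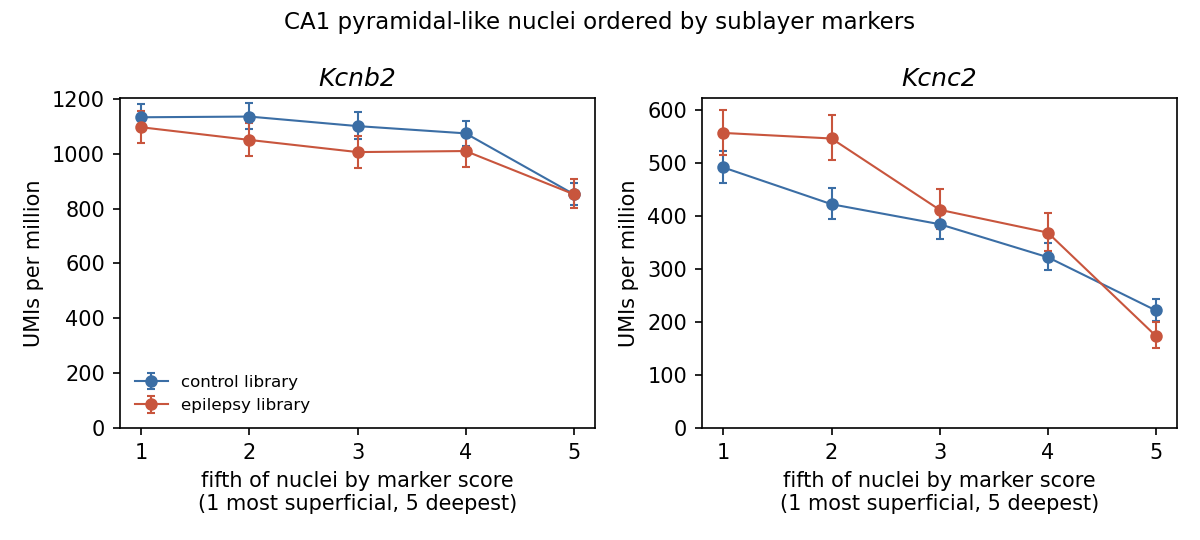
Kcnb2 and Kcnc2 levels (CPM, axes from 0) in 5 equal bins of CA1 pyramidal-like nuclei ordered by sublayer markers, 1 the most superficial and 5 the deepest, with 95% Poisson intervals. The Kcnc2 lines cross between bin 4 and bin 5, from 369 against 323 CPM to 174 against 222 CPM.

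The single clusters that lay in neither sublayer did not share 1 direction for Kcnc2. The cluster led by Ubash3b and Pcsk1 had 358 CPM in control nuclei and 287 CPM in epilepsy nuclei (log2 ratio -0.32, -0.54 to -0.10). The cluster led by Nt5e had 397 and 478 CPM (0.27, 0.06 to 0.47). The remaining 2, one of which was led by the activity-induced genes Btg2 and Fos, had intervals that held 0. Kcnb2 was lower in the epilepsy library in all 6 pyramidal clusters, with an interval below 0 in 2 of them.

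**Figure D3:**
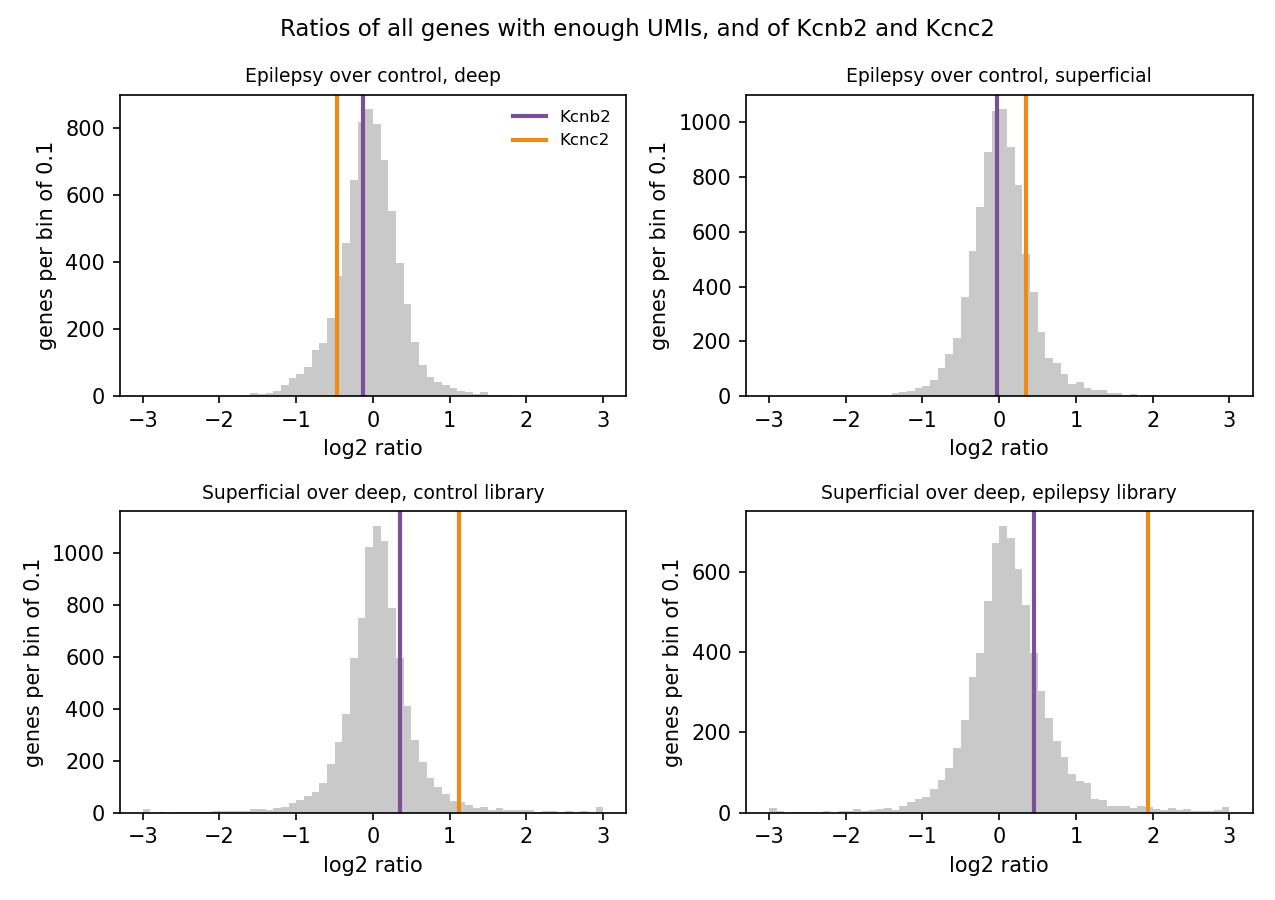
Distribution of log2 ratios over all genes with at least 50 UMIs (bins of 0.1, values past 3 drawn in the end bins), with Kcnb2 in purple and Kcnc2 in orange. Kcnc2 lies at -0.47 in the deep and 0.35 in the superficial sublayer between conditions (upper panels), and at 1.12 and 1.94 between sublayers (lower panels).

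Among the 4 named interneuron types Kcnc2 was highest in Sst-like and Pvalb-like nuclei, which arise in the medial ganglionic eminence (MGE). Sst-like nuclei had 1915 CPM (193 UMIs) in control nuclei and 2213 CPM (115 UMIs) in epilepsy nuclei, Pvalb-like nuclei 1873 CPM (353 UMIs) and 1830 CPM (166 UMIs). These 2 types did not differ beyond counting error (log2 ratio -0.03, -0.29 to 0.23, in control nuclei and -0.27, -0.63 to 0.08, in epilepsy nuclei), in contrast to the Kcnc1 step between them. CCK-like nuclei followed with 795 and 389 CPM, and neurogliaform-like nuclei were lowest with 262 and 306 CPM. The step from CCK-like to neurogliaform-like nuclei exceeded counting error in the control library (1.60, 1.04 to 2.18) and not in the epilepsy library (0.35, -0.57 to 1.26). An unnamed MGE-like cluster led by Neb, of 9 and 5 nuclei, had 2504 and 2475 CPM.

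Between MGE-like and CGE-like nuclei Kcnc2 and Kcnb2 pointed opposite ways. Kcnc2 had 1921 against 978 CPM in the control (log2 ratio 0.97, 0.72 to 1.23) and 2002 against 1295 CPM in the epilepsy library (0.63, 0.34 to 0.92). It was the single member with at least 50 UMIs that was over 1.5-fold higher on the MGE side in each library, where 19.1% and 20.5% of genes were. Kcnc1 stood at 0.45 (-0.14 to 1.08) in the control library. In the epilepsy library it was under that minimum, with 34 and 10 UMIs, and stood at 1.32 (0.27 to 2.50). Kcnb2 had 471 against 662 CPM (-0.49, -0.86 to -0.12) and 374 against 768 CPM (-1.04, -1.55 to -0.54), the second past 1.5-fold as were 22.5% of genes. The control value of Kcnb2 turned to 0.24 without centring by library and to 0.22 at a Leiden resolution of 0.5. Over the alternatives the Kcnc2 ratio ran from 0.85 to 2.42 and from 0.23 to 1.31. Differences between the libraries in these ratios had intervals that held 0 for Kcnc2, Kcnb2 and Kcnc1 alike.

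Between conditions the Kcnc2 intervals held 0 for interneurons as a whole and for the MGE types, and not on the CGE side. The log2 ratio was 0.11 (-0.05 to 0.28) in all interneuron-like nuclei, -0.03 (-0.31 to 0.24) in Pvalb-like and 0.21 (-0.14 to 0.55) in Sst-like nuclei. In CCK-like nuclei it was -1.03 (-1.81 to -0.31), from 69 UMIs in 24 control and 21 UMIs in 19 epilepsy nuclei. Of the 2 members measured there only Kcnc2 was lower past 1.5-fold, as were 10.5% of 408 genes. A single nucleus gave 28.6% of the epilepsy UMIs and 14.5% of the control UMIs, thinning to 1000 UMIs gave -0.36, and at a Leiden resolution of 0.5 or without centring no CCK-like cluster formed. The nuclei named CGE-like stood together at 0.41 (0.07 to 0.74), and between 0.28 and 1.23 over the alternatives tried. The larger neurogliaform-like cluster and the cluster led by Ntng1 held too few CGE markers to be named, and are not among them. The Ntng1 cluster stood at -0.79 (-2.28 to 0.41) for Kcnc2. The 2 neurogliaform-like clusters parted, with 34 and 5 UMIs in the larger (-1.52, -3.24 to -0.16) and 10 and 19 UMIs in the one led by Kit (1.44, 0.26 to 2.70). An unnamed CGE-like cluster led by Bmper and Grm8 went the other way from the CCK-like one. Like the neurogliaform-like pair, it was singled out after its value was seen. It held 46 UMIs in 11 control nuclei (1907 CPM) and 74 UMIs in 15 epilepsy nuclei (3729 CPM). The whole CGE side held 161 and 145 Kcnc2 UMIs, so a large part of them came from this small cluster. How far the CGE-side ratio of 0.41 rests on it was not tested.

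**Figure D4:**
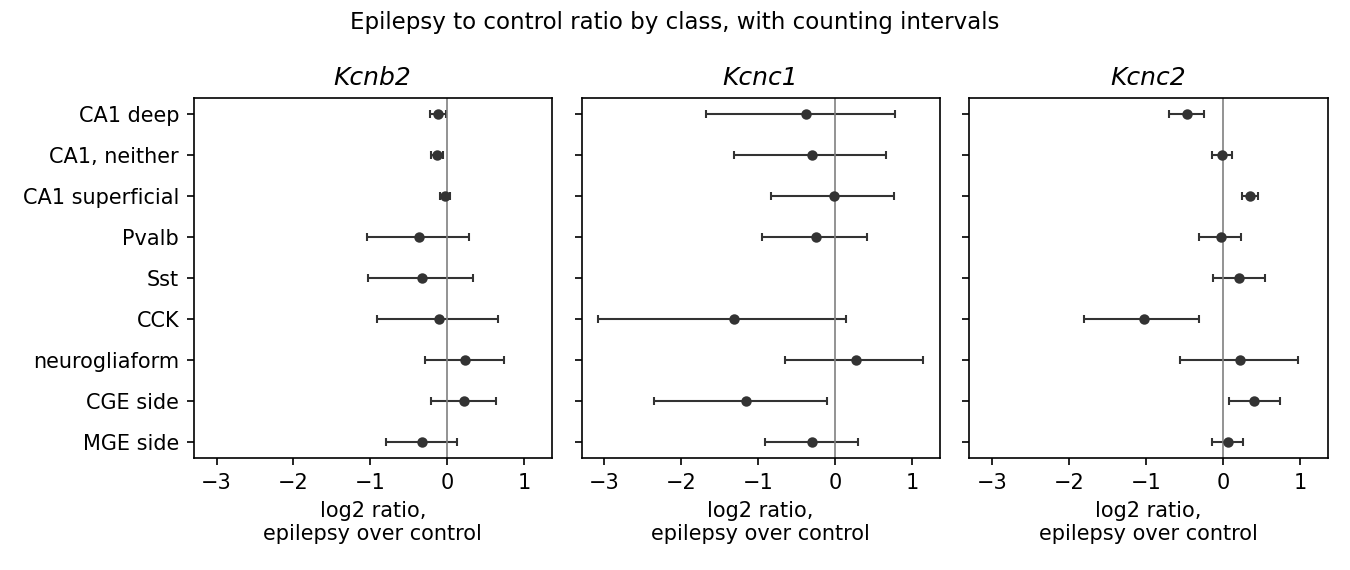
Log2 ratio of epilepsy to control for Kcnb2, Kcnc1 and Kcnc2 in sublayers and interneuron groups, with 95% counting intervals, given where both libraries together held at least 20 UMIs. For Kcnc2 the deep sublayer and CCK-like nuclei lie below 0, the superficial sublayer and the CGE side above it, and for Kcnc1 the one interval clear of 0 is that of the CGE side (-1.17).

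Kcnc2 was found in 43 of 45 control and 27 of 32 epilepsy Pvalb-like nuclei, so nearly any gene would be found beside it. Of 45 Pvalb-like nuclei in the control library, 34 held a UMI of both, 9 of Kcnc2 alone, 1 of Kcnc1 alone and 1 of neither. Of 32 in the epilepsy library, which was shallower, 13 held both, 14 Kcnc2 alone, 1 Kcnc1 alone and 4 neither. Dentate granule-like nuclei of the control library held 25 Kcnc1 UMIs (81.2 CPM) and 10 Kcnc2 UMIs (32.5 CPM) in 156 nuclei, below and above which the genes' own pyramidal-like levels lay, at 9.13 and 369 CPM.

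Kcnc4 (chr3:107438303-107459552, minus strand), which encodes the fast-inactivating Kv3.4 known from mossy fibre terminals of granule cells, was nearly confined to 1 class and 1 library. The control library held 20 UMIs, of which 17 lay in 17 of 156 dentate granule-like nuclei (55.2 CPM), 2 in interneuron-like and 1 in CA1 pyramidal-like nuclei. With under 20 UMIs in any pair of classes, no ratio is given. The epilepsy library held 0 UMIs of Kcnc4 and only 14 dentate granule-like nuclei. At the control level their UMIs would have given 0.703 Kcnc4 UMIs, so a difference between conditions was not detectable at this depth.

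Of 16 listed partners and further family members, 8 had at least 50 UMIs in pyramidal-like nuclei, and between conditions 1 was higher and 1 lower past 1.5-fold, where 13.8% of all genes were past it in either direction. They were Kcng3 (1.27) and Kcng2 (-1.04), both silent Kv2 modifiers with 76 and 53 UMIs in all. The median was 0.09, against 0.00 over all genes. Kcns3, a silent Kv2 partner also noted in parvalbumin cells, was 3.40 and 3.37 higher on the log2 scale in interneuron-like than in pyramidal-like nuclei. Of its interneuron UMIs, 35 of 64 in the control and 18 of 38 in the epilepsy library lay in neurogliaform-like nuclei (208 and 229 CPM). In Pvalb-like nuclei it had under 50 UMIs over both libraries.

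Of 21 other voltage-gated potassium channel alpha subunits, 14 had at least 50 UMIs in pyramidal-like nuclei, of which 1 was higher and 1 lower past 1.5-fold between conditions, against 13.8% of all genes. The median was -0.04. Kcnd3, an A-type subunit, had 28.4 and 44.4 CPM (0.64, 0.39 to 0.89), and Kcna4, another A-type subunit, 30.6 and 14.7 CPM (-1.06, -1.42 to -0.71). Kcnh7 of the ERG family had 2980 and 2185 CPM (-0.45, -0.48 to -0.42). Kcnq3, a subunit of M-current channels, divided by sublayer like Kcnc2, at -0.30 (-0.39 to -0.22) in the deep and 0.37 (0.32 to 0.42) in the superficial sublayer. Members of this list could serve as clustering genes, unlike the Kv2 and Kv3 genes.

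The genes most alike to each member were ranked by Pearson correlation of log2(CPM + 10) over 16 points, which were 8 classes in each of the 2 libraries, among 4574 genes. For Kcnb2 they were Gucy1a2 (r = 0.96), Plppr2 (0.94) and Gpm6a (0.92). For Kcnc1 they were Negr1 (0.97), Cit (0.94) and Grip1 (0.94), and for Kcnc2 Fgf12 (0.92), Etl4 (0.91) and Spats2l (0.91). The classes were deep-like, superficial-like, Pvalb-like, Sst-like, CCK-like, neurogliaform-like, oligodendrocyte-like and microglia-like nuclei. Microglia-like nuclei, which held pyramidal markers near the pyramidal-like level, thus gave 2 of the 16 points. The points share libraries and depth, and the correlations describe only these classes. Kcnc4 had 2 and Kcnv1 36 UMIs over the points, and no likeness is given for them.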

How the data were processed

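The deposited files hold raw UMI counts per gene and nucleus, as whole numbers with no normalization by the authors. Cell Ranger 2.2.0, FastQC and the GRCm38 (mm10) genome are named in the submitters' processing notes; per the labels' protocols, libraries were made with 10x 3' v2 chemistry. For the choice of barcodes and the handling of intronic reads, settings were not given in the sources used here. All members and lists were chosen with earlier results of these data known. Filters of 200 detected genes and 5% mitochondrial UMIs took out 0 nuclei. Scrublet (scanpy 1.11.5, expected rate 0.06) marked 0.137% and 0.162% of nuclei, so the 3% with the highest score were removed. The 2000 most variable genes, without 21 Kv2 and Kv3 family genes, were scaled per library, reduced to 30 components and clustered with 20 neighbours (leidenalg 0.10.2, resolution 1.0); interneurons were clustered again with 15 and 15. A class needs 3 markers at 20 CPM and 2-fold, and a cluster in which another class scores over 0.5 of the first stays unnamed. A sublayer needs opposite Calb1 and Ndst4, with Ndst4 at 2-fold, and 2 further markers at 1.25-fold. The 0.5 limit and the number of further markers were set after clusters had been seen; naming left 69 control and 80 epilepsy nuclei unnamed. UMIs were summed per class and library. Ratios carry exact conditional binomial intervals, CPM exact Poisson and differences of ratios Wald intervals, at 95%. Only the ratio interval was tested on simulated data, for pyramidal-like nuclei between conditions. Those counts were drawn with counting error alone, so spread between nuclei, small classes and the Poisson and Wald intervals were not tested. Ratios need 20 UMIs, and calls past 1.5-fold need 50. The text names the members, the 3 genes most alike to each (at least 200 UMIs per library), and up to 4 genes per list by the interval bound nearest 0. Some genes the rule names are not reported here. Positions come from GENCODE M21. Alternatives covered filters, doublets, centring, resolution, scaling (edgeR 4.0.16), weighting, thinning and splits, and 1 left out barcodes shared by both libraries, chosen after seeing the data.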

Additional observations from a re-analysis of the deposited data

Results flagged for a closer look

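Kcnc2 moved in opposite directions in the sublayers between conditions, which is why it deserves a closer look. Its log2 ratio of epilepsy to control was -0.47 in deep-like and 0.35 in superficial-like nuclei, with both intervals clear of 0. With each nucleus thinned to 1000 UMIs, the deep-like ratio was -0.22 and its interval held 0 (-0.62 to 0.17), while the superficial-like one was 0.37 (0.19 to 0.56). The epilepsy library is the shallower one. The difference between the sublayers was not tested across samples, since each condition is 1 library.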

How the results depend on the processing

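Of 535 recomputed ratios and differences of the members, 488 stayed within their counting interval, 44 left it and 3 that had been clear of 0 changed sign. The 3 were Kcnb2 between MGE-like and CGE-like nuclei in the control library, at 0.24 without centring and 0.22 at resolution 0.5, and Kcnc1 between conditions on the CGE side, at 0.0088 when split by Adarb2 UMIs. The direction of Kcnc2 held in every alternative, from -0.56 to -0.22 in the deep and from 0.19 to 0.39 in the superficial sublayer between conditions, and from 0.46 to 0.91 for the difference of the superficial to deep ratios. Splitting at the median marker score gave superficial to deep ratios of 0.62 and 1.07 for Kcnc2 and of 0.23 and 0.19 for Kcnb2 (control, then epilepsy), differences of 0.46 for Kcnc2 and -0.046 for Kcnb2, and superficial ratios between conditions of 0.19 for Kcnc2 and -0.12 for Kcnb2. The control superficial to deep ratio of Kcnc2 was 1.37 with doublets kept, 1.26 without centring and 1.29 at resolution 2.0. With trimmed-mean factors the interneuron to pyramidal ratio of Kcnb2 was -1.03 and -1.13, that of Kcnc2 1.46 and 1.42, and the ratios between conditions were -0.16 for Kcnb2 and 0.079 for Kcnc2 in pyramidal-like and -0.13 for Kcnb2 in superficial-like nuclei. The interneuron to pyramidal ratio of Kcnb2 was -1.10 and -1.11 without centring and -1.09 and -1.09 at resolution 0.5. With equal weight per nucleus it was -0.56 in the epilepsy library, and Kcnb2 between conditions in interneurons was 0.093. Thinning gave -0.49 for that epilepsy ratio, 0.46 for Kcnb2 from superficial to deep in the control, -0.11 for Kcnb2 in superficial-like and -0.22 for Kcnc2 in deep-like nuclei between conditions, and interneuron to pyramidal ratios of 1.93 for Kcnc2 and 4.14 for Kcnc1 in the control. The cause of these shifts was not tested.

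The number of genes past 1.5-fold follows how many are counted. Between conditions it was 1527 in pyramidal-like, 965 in deep-like, 1082 in superficial-like and 446 in interneuron-like nuclei, and 1305 and 1548 between sublayers in the control and epilepsy libraries. With a minimum of 20 UMIs these were 2888, 2057, 2162, 1590, 2199 and 2676; with 200 UMIs 407, 147, 215, 36, 494 and 516; after thinning 912, 426, 581, 141, 787 and 936. The split at the median score gave 835 and 965 between sublayers. Between interneurons and pyramidal cells the 4526 and 4126 genes became 2338 and 1728 with 200 UMIs.

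A Pvalb-like cluster did not form without centring, at resolution 2.0, with doublets kept, with at least 500 detected genes or without the nuclei of shared barcodes, and a CCK-like one did not form without centring or at resolution 0.5, so these have no value there. No paired analysis was possible because each condition has 1 library. Depth limits Kcnv1 and Kcnc4 everywhere and Kcnc1 in single subtypes, and the epilepsy library is the shallower. With 1 library each, nothing that differs between conditions was checked in replicates.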
